A study of Gallus gallus with 24 samples.

Results

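Liver of broiler chickens described as male was compared between 9 days after hatching (D9) and embryonic day 18 (E18). The samples were chosen by their titles. Of the 24 livers of the series, taken at 6 ages from E16 to D9, the comparison uses 8, namely 4 D9 hatchlings and 4 E18 embryos, each on an array of its own. All were described as Ross x Ross males, although a gene of the female W chromosome was high in E18 replicate 2, as given below. The D9 birds had eaten feed and drunk water freely, and the E18 embryos were still in the egg. As day-old chicks the D9 birds had been vaccinated against Marek's disease virus and moved to a heated brooder, which the E18 embryos had not. In the brooder they were later kept on a cycle of light and dark, and the light on the embryos is not described. Age, feeding, housing, light and vaccination thus cannot be told apart. The stage field of the labels reads E16 for the E18 livers, against their titles, and the titles were used. Genes enter the comparison when a probe set carries a single gene symbol, which holds for 27168 of 38439 probe sets and gives 13009 named genes. The replicate number of a liver was taken as the day of its hybridization, which the titles do not state. Nothing says that livers of different ages came from related birds.

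A chick embryo lives on yolk fat, which its liver takes up, stores and oxidizes. After hatching the bird breathes air, keeps its own body temperature and eats a diet rich in starch, and its liver is then the main site of fatty acid synthesis. Thyroid hormone acts in this change. Deiodinases set its level in a tissue, since DIO1 and DIO2 make the active T3 from T4 and DIO3 inactivates both.

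Values are log2 intensities, and ratios are the D9 mean minus the E18 mean on that scale. A gene is said to be higher or lower at D9 when its adjusted p in limma is at most 0.05 and its ratio at least 0.75 in size. Of the 38439 probe sets, 1865 were higher at D9 (4.85%) and 1446 were lower (3.76%), and 12329 had an unadjusted p under 0.05. With each gene shown by its probe set of highest mean, 1040 genes were higher at D9 (7.99% of 13009), 696 were lower (5.35%) and 11273 were neither. In 997 of the higher genes (7.66%) all 4 D9 arrays lay above all 4 E18 arrays, and in 662 of the lower genes (5.09%) all lay below. The median ratio over all named genes was -0.01. The ratio reached 3 in 86 of the higher genes and in 28 of the lower genes, and it reached 5 in 22 and 4 of them. Thus the far end of the distribution held more genes that were higher at D9, as the plot of ratio against level shows. Of the called genes, 1008 have more than 1 probe set, and for 717 of those the probe sets did not all give the same call. The range over a gene's probe sets is given below wherever they disagree.

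**Figure D1:**
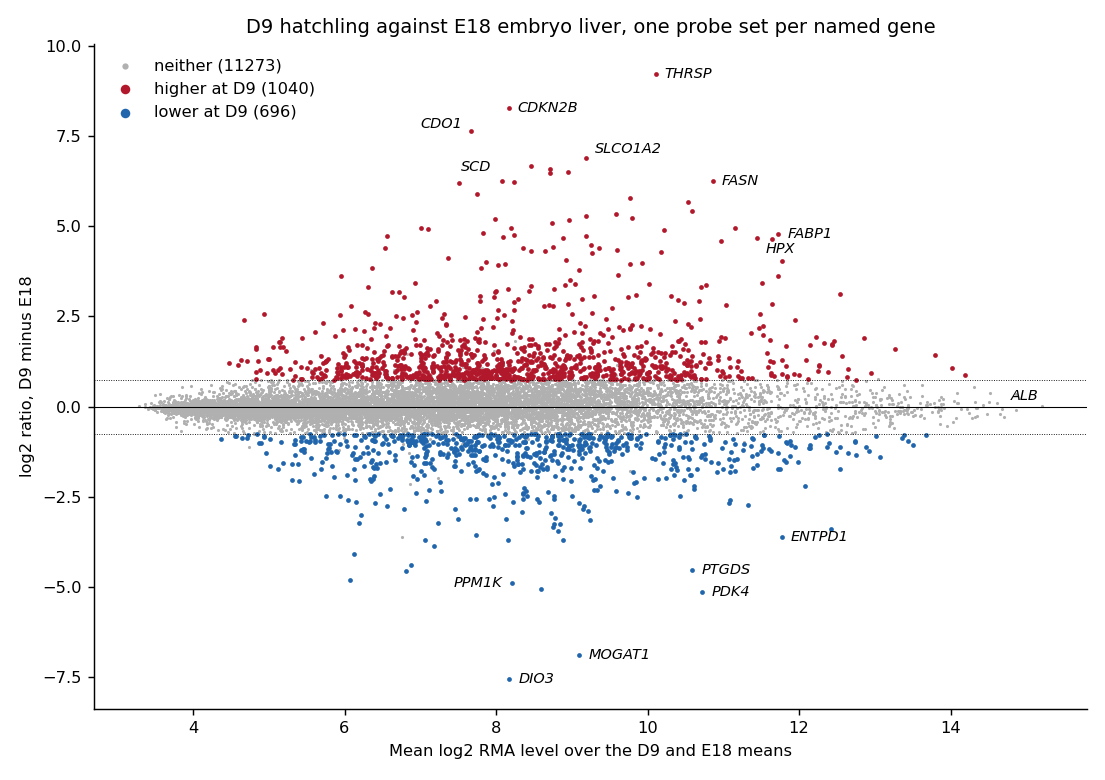
Each point is 1 of 13009 named genes, with the mean log2 level of both ages on the x axis and the log2 ratio, D9 minus E18, on the y axis. Red points are the 1040 genes higher at D9 and blue points the 696 lower at D9, dotted lines mark a ratio of 0.75 in either direction, and THRSP (9.22) and DIO3 (-7.54) lie farthest from 0.

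None of 10 measured hepatocyte markers was called, and the mean log2 level of the list was between 12.05 and 12.12 at D9 and between 12.10 and 12.18 at E18. ALB, the gene of serum albumin, was between 15.17 and 15.24 on all 8 arrays. This is next to the highest value on any array (15.24), where a rise could not show. Some E18 and D9 livers nevertheless stood apart. HINTW, a gene of the female W chromosome, was at 12.17 on E18 replicate 2, a liver labelled male, and at most 6.05 on the other 7 arrays. Heart genes were raised on D9 replicate 1. The atrial hormone gene NPPA was at 8.11 there and at most 4.56 on the other D9 arrays, and the cardiac actin ACTC1 was at 8.69 there against at most 5.24. Without these 2 livers 1005 genes were higher and 692 lower at D9. Without E18 replicate 1 alone 910 were higher and 730 lower, the fewest higher genes with any 1 liver left out. The part of these livers in single results was not tested, except where values without them are given. In bulk tissue, fewer cells of a type and less RNA per cell cannot be told apart.

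The lists of genes used below each cover a pathway or a cell type. A list is described by how many of its measured members were higher or lower at D9, to be read against the 7.99% and 5.35% of all named genes.

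**Figure D2:**
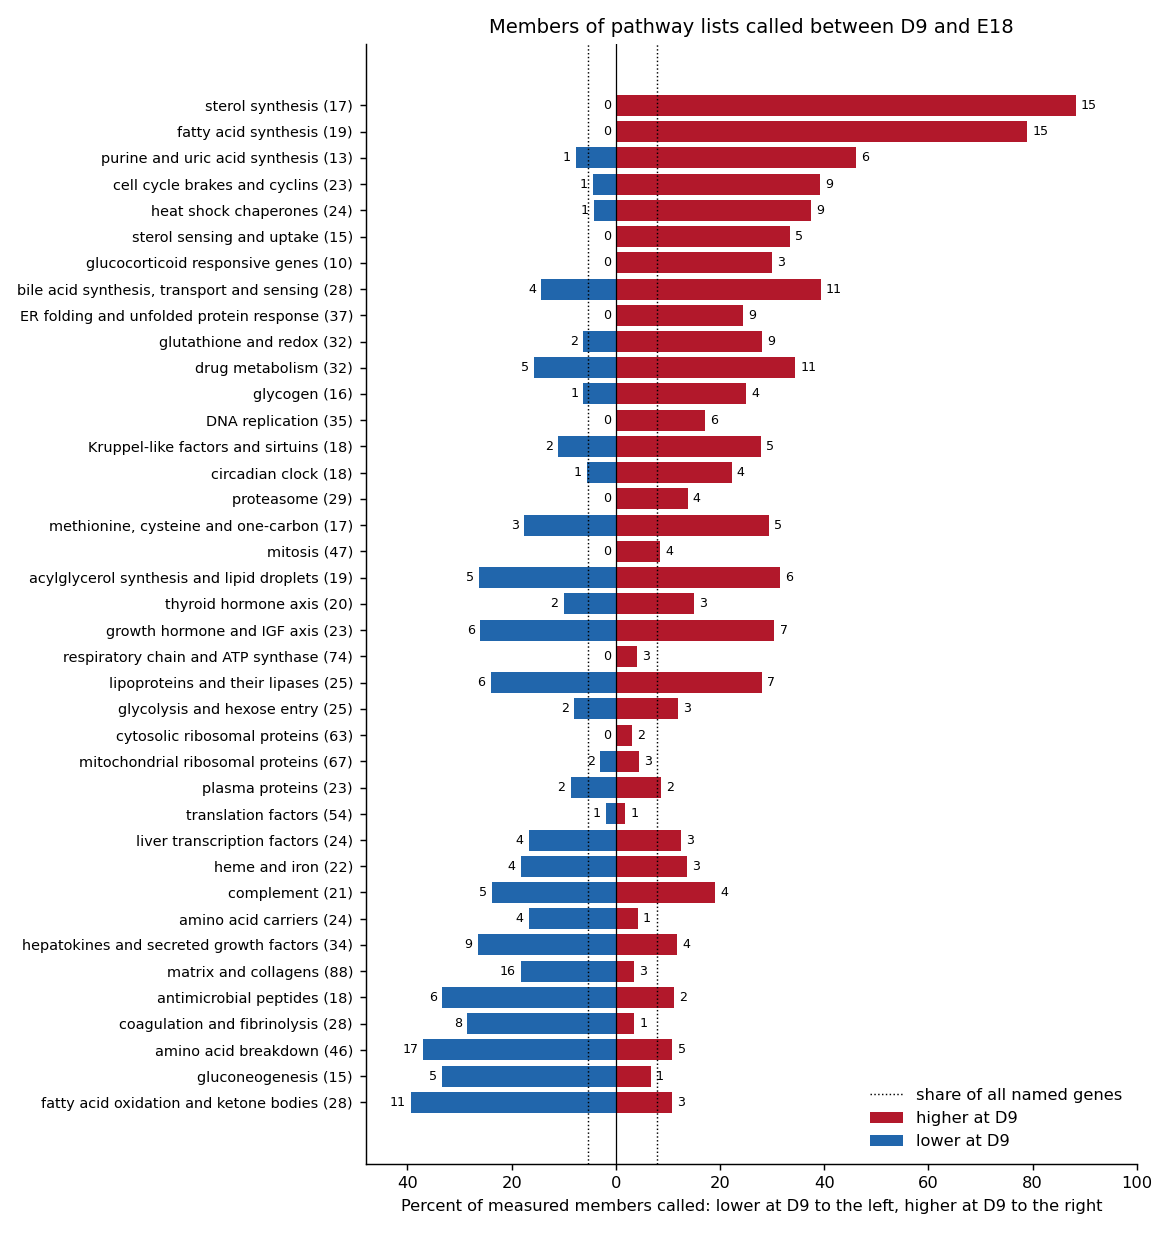
Bars give the percent of measured members of each pathway list that were higher at D9 (red, to the right) or lower at D9 (blue, to the left), with the number of such genes at the end of each bar and the number measured after the name. Dotted lines mark the shares over all named genes, and the synthesis of sterols (15 of 17) and of fatty acids (15 of 19) stands farthest to the right.

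Genes of fatty acid synthesis were higher at D9. Of 19 measured genes, 15 were higher and none was lower, and the median ratio of the list was 4.40. All 15 were without overlap between the ages. THRSP (Spot 14), a nuclear protein that promotes lipogenesis and responds to thyroid hormone, was at 14.76, 14.63, 14.70 and 14.76 in the 4 D9 livers, against 5.61, 5.73, 5.52 and 5.13 in the 4 E18 livers. This was the largest measured ratio of all named genes, at 9.22 (standard error 0.36, adjusted p = 9.1e-15 in limma) or 595-fold. FASN, which builds palmitate, was at 13.98, 14.19, 13.86 and 13.89 at D9 and at 7.35, 7.60, 7.84 and 8.15 at E18, a ratio of 6.24 (standard error 0.17, adjusted p = 3.4e-17). The livers of each age thus lay within about 1 log2 unit of each other while the ages were more than 5 apart.

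The other steps of the pathway went the same way. ACLY, which makes cytosolic acetyl-CoA from citrate, had a ratio of 4.04, and ACACA, which carboxylates it to malonyl-CoA, had 4.40, with probe sets from 0.41 to 4.40. ME1, the malic enzyme that supplies NADPH, was between 13.86 and 14.09 at D9 and between 8.94 and 9.72 at E18, a ratio of 4.64. SCD, which places the first double bond, was at 11.42, 11.22, 11.20 and 10.96 at D9 and at 5.31, 4.79, 4.76 and 4.97 at E18, a ratio of 6.24. Among the enzymes that lengthen and desaturate long chains, the ratio was 5.67 for ELOVL5, 4.93 for ELOVL2, 4.58 for ELOVL6 and 1.83 for ELOVL1. FADS2 had 6.20, a lower bound with an E18 mean of 4.42, and FADS1 had 4.39, although a second probe set of FADS2 stayed at -0.06. PNPLA3, a lipase of lipid droplets, had a ratio of 5.42. The citrate carrier SLC25A1 (0.83, and 0.75 and not called without E18 replicate 1) and PGD of the pentose phosphate pathway (0.87) were higher by much less. The 4 members not called were ACACB, the mitochondrial form of the carboxylase, at -0.02, ACSS2 at 0.53, MID1IP1 at 0.56 and SREBF1, the transcription factor known in mammals for driving these genes, at 0.57. SREBF1 did pass the adjusted p (0.0016) and missed the limit on the ratio, with values between 6.57 and 6.86 at D9 and between 5.77 and 6.30 at E18.

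Sterol synthesis was higher at D9 in 15 of 17 measured genes and lower in none, with a median ratio of 4.33. The genes cover the pathway from acetoacetyl-CoA to cholesterol. ACAT2 (3.61, probe sets 0.36 to 3.61) and HMGCS1 (5.34) begin it, MVK (1.36, probe sets 0.63 to 1.36) and MVD (1.88) act on mevalonate, and FDPS (4.74) and FDFT1 (4.34) join the isoprene units into squalene. SQLE, which oxidizes squalene, was at 11.56, 11.11, 11.49 and 11.22 at D9 and at 5.02, 5.0, 5.14 and 5.35 at E18, a ratio of 6.22 (standard error 0.19, adjusted p = 1.4e-16 in limma). NSDHL, a later step, was at 12.32, 12.14, 12.16 and 12.20 at D9, against 5.30, 5.47, 5.96 and 6.06 at E18, a ratio of 6.51. LSS (5.19), MSMO1 (4.96), HSD17B7 (4.33), SC5D (2.43, probe sets 0.28 to 2.43) and DHCR7 (5.20, probe sets 0.24 to 5.20) complete the ring steps. The mevalonate steps MVK and MVD had ratios under 2, and SQLE and NSDHL, past squalene, had ratios over 6. The ratios did not divide at squalene, with HMGCS1 (5.34) and FDPS (4.74) before it and SC5D (2.43) past it. PMVK had a ratio of 0.94 with overlapping ages (7.62, 7.96, 9.68 and 8.90 at D9, 7.87, 7.84, 7.48 and 7.21 at E18). It was not called without D9 replicate 3 (0.56), D9 replicate 4 (0.82), E18 replicate 3 (0.90) or E18 replicate 4 (0.81). The 2 members not called were CYP51A1 (0.68, called at 0.76 without E18 replicate 3) and LBR (0.59, probe sets -0.05 to 1.36).

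In the list of sterol sensing and uptake 5 of 15 genes were higher and none was lower (median ratio 0.39). SREBF2, the transcription factor that drives sterol genes in mammals, was at 9.92, 10.03, 10.37 and 9.76 at D9 and at 7.41, 7.49, 7.30 and 6.76 at E18. Its ratio was 2.78 (adjusted p = 6.5e-08 in limma). STARD4, which carries cholesterol between membranes, had a ratio of 5.27, and INSIG1, which holds SREBF proteins in the endoplasmic reticulum when sterol is plentiful, had 1.05. INSIG2 (0.84) and NPC2 (0.76) were closer to the limit, and without D9 replicate 2 neither was called (0.71 for both) and the count was 3. INSIG2 was at 0.73 without D9 replicate 1, and NPC2 at 0.67 without E18 replicate 4. The oxysterol receptor NR1H3 was not called (0.48), nor were ABCA1 (-0.26) and SOAT1 (-0.22), which export cholesterol and esterify it.

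**Figure D3:**
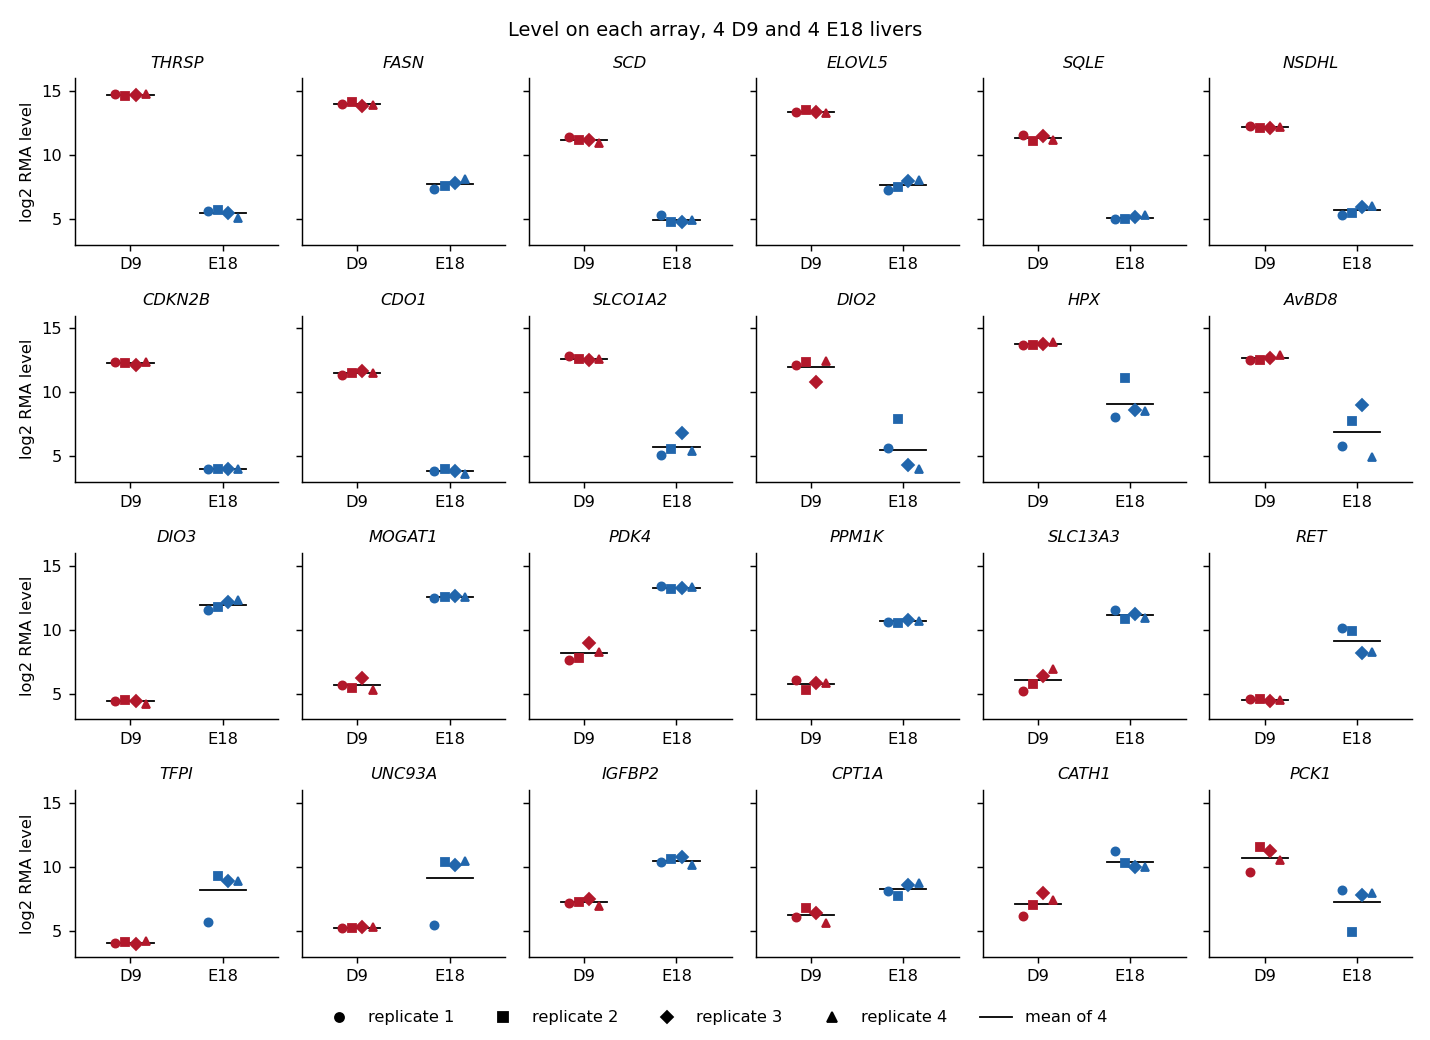
Log2 level of 24 genes on each array, 4 D9 livers in red on the left and 4 E18 livers in blue on the right of each panel, with a black line at the mean of 4. No gene shown has overlapping ages, and single livers stand apart in TFPI and UNC93A (E18 replicate 1), HPX and PCK1 (E18 replicate 2).

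Genes that store fat went both ways. Of 19 genes of acylglycerol synthesis and lipid droplets 6 were higher and 5 were lower. GPAM, which starts glycerolipid synthesis from glycerol phosphate, had a ratio of 3.79, AGPAT2, the next step, had 3.36, and PLIN2, a coat protein of lipid droplets, had 3.42. MOGAT1, which makes diacylglycerol from monoacylglycerol instead, was at 5.66, 5.45, 6.23 and 5.26 at D9 and at 12.46, 12.52, 12.64 and 12.57 at E18. Its ratio was -6.89 (standard error 0.36, adjusted p = 2.3e-12 in limma) or 119-fold lower, and its 3 probe sets ranged from -6.89 to -0.38. AGPAT3 was lower by a ratio of -1.77, and LPIN1 and LPIN2, a pair of phosphatidate phosphatases, moved apart at 2.63 and -0.96 (probe sets of LPIN2 -0.96 to -0.01).

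The fatty acid binding proteins and lipases of the lipoprotein list were also divided, with 7 of 25 higher and 6 lower. FABP1, the liver's fatty acid binding protein, was at 14.02, 14.0, 14.33 and 14.10 at D9, against 8.36, 9.60, 9.59 and 9.80 at E18, a ratio of 4.78 (adjusted p = 1.0e-10 in limma) or 27.4-fold. APOA4 (3.13) and MTTP (1.34), which loads fat onto apolipoprotein B, were higher, and APOB itself was not called (-0.20, probe sets -1.90 to -0.20). Lipoprotein lipase LPL (-2.26), hepatic lipase LIPC (-2.67), LCAT (-1.54) and CETP (-1.41, probe sets -1.93 to -0.17) were lower at D9. The endothelial lipase LIPG was higher instead, between 7.12 and 8.21 at D9 and between 4.41 and 4.90 at E18.

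Fatty acid oxidation was lower at D9 in 11 of 28 measured genes and higher in 3, with a median ratio of -0.41. PDK4, a mitochondrial kinase that inhibits pyruvate dehydrogenase and so spares carbohydrate, was at 7.61, 7.76, 8.98 and 8.27 at D9 and at 13.42, 13.16, 13.24 and 13.34 at E18. Its ratio was -5.13 (standard error 0.22, adjusted p = 6.4e-14 in limma), 35.1-fold lower. CPT1A, the gate for fatty acids into mitochondria, was at 6.08, 6.78, 6.39 and 5.59 at D9 and at 8.12, 7.76, 8.59 and 8.76 at E18, a ratio of -2.10 with probe sets from -2.10 to -0.34. The coactivator PPARGC1A was between 6.51 and 6.63 at D9 and between 8.75 and 9.85 at E18 (-2.77), and the receptor PPARA had a ratio of -1.07. In these 4 genes no D9 liver reached an E18 liver.

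Among the enzymes and carriers of oxidation, SLC22A5, which takes up carnitine, had a ratio of -1.73 (probe sets -1.74 to -0.08), ETFDH -1.72, CROT -1.70 and HADHB -1.16. ACAA2 (-0.14), ACADL (-0.43) and SLC25A20 (-0.43) were not called. The 3 genes that were higher were ANGPTL4 (1.86), an inhibitor of lipoprotein lipase, CRAT (1.02) and PPARD (0.90).

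The enzymes that set thyroid hormone were far apart between the ages. DIO3, which inactivates the hormone, was at 4.46, 4.51, 4.43 and 4.21 at D9, around 4.43, a level that 25% of the probe sets do not exceed in their mean. In the E18 livers it was at 11.53, 11.76, 12.18 and 12.30. The ratio of -7.54 (standard error 0.51, adjusted p = 1.9e-10 in limma), or 186-fold, was the lowest of all named genes and, with D9 so near to background, is a lower bound of the size. DIO2, which activates the hormone, was at 12.18, 12.38, 10.82 and 12.45 at D9, against 5.63, 7.92, 4.36 and 3.98 at E18, a ratio of 6.48 (standard error 0.67, adjusted p = 1.7e-07). The E18 livers were spread over about 4 log2 units in DIO2, with replicate 2 the highest, and without that liver the ratio was 7.30. A second DIO2 probe set gave 2.30.

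DIO1 was nearly level, at 11.31, 11.22, 11.38 and 11.36 at D9 and at 11.55, 11.87, 11.74 and 11.46 at E18, a ratio of -0.34 that missed the limit (adjusted p = 0.019 in limma). The receptors were not called, with THRA between 5.11 and 5.72 and THRB between 4.44 and 5.08 on the 8 arrays. Carriers and binding proteins were not called either, with TTR at 0.14 and SLC16A10 at -0.56. KLF9, a transcription factor that responds to thyroid hormone and to glucocorticoid, was at 8.16, 7.76, 8.83 and 8.48 at D9 and at 5.41, 5.41, 5.42 and 4.81 at E18 (ratio 3.04, adjusted p = 6.8e-09). The corepressor NCOR1 was lower, at -0.97 with probe sets from -0.97 to -0.22. In all, 3 of 20 genes of the axis were higher and 2 were lower.

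In gluconeogenesis 1 of 15 genes was higher and 5 were lower. PCK1, the cytosolic PEP carboxykinase, was at 9.62, 11.53, 11.24 and 10.52 at D9, against 8.20, 4.93, 7.78 and 8.0 at E18, a ratio of 3.50 (standard error 0.65, adjusted p = 0.00034 in limma). E18 replicate 2 was the lowest liver by far, and without it the ratio was 2.73. The count of higher genes was 2 when D9 replicate 1, D9 replicate 4, E18 replicate 3 or E18 replicate 4 was left out. PCK2, the mitochondrial form, was not called (-0.13), nor was G6PC (-0.05), which releases free glucose. FBP1, at -0.42 (adjusted p = 6.5e-06), passed the test and missed the limit on the ratio, and G6PC2 (-1.90) and FBP2 (-0.97) were lower. In the list of glycolysis and hexose entry 3 of 25 genes were higher and 2 were lower, with a median ratio of 0.005. KHK, which phosphorylates fructose, and PFKL, the liver form of phosphofructokinase, were the highest of this list, at 2.14 and 1.99. HKDC1, a protein with hexokinase domains and among the 15 highest ratios, was at 11.76, 11.38, 11.97 and 12.10 at D9 and at 5.39, 5.01, 5.08 and 5.0 at E18, a ratio of 6.68 (adjusted p = 7.2e-10), and its 3 probe sets ranged from 5.14 to 6.68. The fructose carrier SLC2A5 was lower (-1.72, probe sets -1.72 to -0.09). In the glycogen list 4 of 16 genes were higher and 1 was lower. UGP2 (1.91, probe sets 0.19 to 1.91) and GBE1 (1.51, probe sets 0.15 to 1.51), which act in glycogen synthesis, were higher. So were the phosphomutases PGM2 (1.40) and PGM1 (0.98). The kinase subunit PHKA2, which acts in glycogen breakdown, was lower at -1.18 with overlapping ages.

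Bile acid genes were higher at D9 in 11 of 28 and lower in 4 (2 without D9 replicate 2, and 2 without E18 replicate 3). SLCO1A2, a carrier of bile acids and other organic anions, was at 12.84, 12.60, 12.54 and 12.58 at D9, against 5.09, 5.61, 6.82 and 5.43 at E18. Its ratio was 6.90 (standard error 0.49, adjusted p = 4.8e-10 in limma). SLC51A and SLC51B, the subunits of the carrier that exports bile acids across the basolateral membrane, had ratios of 4.47 and 3.34. CYP7A1, the rate-limiting enzyme of bile acid synthesis, was at 10.57, 8.54, 8.17 and 8.42 at D9, where replicate 1 was the highest, and between 4.11 and 4.28 at E18. The E18 level of CYP7A1 is at background, so its ratio of 4.73 (adjusted p = 3.0e-06) is a lower bound. ABCG8, which exports sterol into bile, had 2.17. The bile acid receptor NR1H4 went down instead, between 8.69 and 9.43 at D9 and between 10.62 and 11.22 at E18 (ratio -1.98, probe sets -1.98 to -0.28).

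Amino acid breakdown was lower at D9 in 17 of 46 genes and higher in 5, with a median ratio of -0.38. PPM1K, the phosphatase that switches on the branched-chain ketoacid dehydrogenase, was at 6.07, 5.30, 5.85 and 5.81 at D9 and at 10.63, 10.56, 10.72 and 10.71 at E18. Its ratio was -4.90 (standard error 0.30, adjusted p = 3.4e-11 in limma), with probe sets from -5.83 to -0.35. The dehydrogenase subunits BCKDHB (-2.04) and DBT (-1.11) were lower, as were MCCC2 (-1.94, probe sets -1.94 to -0.10) and MCCC1 (-1.73, probe sets -1.73 to 0.16) of leucine breakdown, AASS (-2.33, probe sets -2.33 to -0.12) of lysine breakdown and TDO2 (-1.15), KYNU (-1.46) and KMO (-0.93) of tryptophan breakdown. AFMID, an arylformamidase of the same tryptophan path, was among the 5 that were higher, between 10.94 and 11.46 at D9 and between 5.94 and 6.52 at E18 (ratio 5.09). GLDC, which cleaves glycine, had 3.08, and ASS1, which joins citrulline and aspartate, had 2.78.

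Sulfur, one-carbon and purine genes included some of the highest ratios. In the list of methionine, cysteine and one-carbon genes 5 of 17 were higher and 3 were lower. CDO1, the dioxygenase that starts the path from cysteine to taurine, was at 11.33, 11.49, 11.64 and 11.52 at D9, against 3.84, 4.05, 3.87 and 3.65 at E18. The ratio was 7.65 (standard error 0.39, adjusted p = 1.6e-12 in limma), a lower bound since all 4 E18 values lay under 4.43. CSAD, the next step to taurine, had 1.02, and CTH, which makes cysteine, was lower at -1.72 (probe sets -1.72 to -0.27). Birds excrete nitrogen as uric acid made from purines, and 6 of 13 genes of this path were higher and 1 was lower. XDH, the last step to uric acid, was at 9.69, 9.62, 10.29 and 9.30 at D9 and at 5.99, 5.56, 6.04 and 5.91 at E18 (ratio 3.85, adjusted p = 2.0e-10, probe sets -0.03 to 3.85). PPAT, which starts purine synthesis, had 1.83, and ADSL was lower at -1.13. The probe sets of PAICS ranged from -0.48 to 1.76.

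Glutathione and redox genes were higher in 9 of 32 and lower in 2 (1 without D9 replicate 3, and 1 without E18 replicate 3). The glutathione transferase GSTA4 was between 10.78 and 11.60 at D9 and between 6.18 and 6.90 at E18, a ratio of 4.68 (adjusted p = 3.6e-13 in limma), and GSTA2 (2.05) and MGST3 (2.83) were higher too. GCLC, the first step of glutathione synthesis, had 3.26 (probe sets 0.07 to 3.26). Drug metabolism had 11 of 32 genes higher and 5 lower. CYP1A2 was at 10.88, 10.50, 11.33 and 10.48 at D9 and at 4.96, 7.24, 7.38 and 6.37 at E18 (ratio 4.31, probe sets 0.04 to 4.31), and the P450 reductase POR had 1.79. The sulfotransferase SULT1B1, at -2.33, had the lowest ratio of the list.

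Of 23 genes of plasma proteins that the liver secretes, 2 were higher at D9 and 2 were lower. HPX, the heme scavenger hemopexin, was at 13.73, 13.69, 13.80 and 13.91 at D9, against 8.11, 11.13, 8.59 and 8.55 at E18, a ratio of 4.68 (standard error 0.44, adjusted p = 3.4e-08 in limma). E18 replicate 2 was the highest of the E18 livers, and without it the ratio was 5.36. The copper protein gene CP had 2.45 with probe sets from -0.55 to 2.45. The lower ones were ITIH2 (-1.06), a heavy chain of the inter-alpha-trypsin inhibitors, and the protease inhibitor A2M (-0.80, probe sets -1.47 to -0.80). Of 28 clotting genes 8 were lower and 1 was higher (0 without D9 replicate 2, D9 replicate 4, E18 replicate 1 or E18 replicate 2). The lower ones include prothrombin F2 (12.11, 11.92, 12.03 and 12.26 at D9, 13.60, 13.50, 13.20 and 13.43 at E18, ratio -1.35), F5 (-1.13), the anticoagulant protein C gene PROC (-1.16, probe sets -1.16 to -0.73) and KLKB1 (-1.48, probe sets -1.48 to -0.11). TFPI, an inhibitor of the start of clotting, was at 4.03, 4.16, 3.97 and 4.18 at D9 and at 5.66, 9.25, 8.91 and 8.87 at E18. Its ratio of -4.09, a lower bound of the size, became -4.93 without E18 replicate 1, the liver that lay nearest to D9.

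The complement list had 4 genes higher and 5 lower of 21. C4A was at 12.80, 12.72, 12.64 and 12.50 at D9, against 6.67, 8.87, 8.33 and 7.17 at E18, a ratio of 4.90 (adjusted p = 1.0e-07 in limma) with a second probe set at 0.13. MASP2 (-1.49, probe sets -1.49 to -0.07) and C8A (-1.15) were lower. Among antimicrobial peptides, AvBD8, a beta-defensin, was at 12.51, 12.52, 12.70 and 12.95 at D9 and at 5.78, 7.76, 9.02 and 4.93 at E18. Its ratio of 5.80 became 6.51 without E18 replicate 3 and 5.15 without E18 replicate 4. LEAP2, a liver peptide, had 1.82. In both genes every D9 liver lay above every E18 liver.

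Some antimicrobial peptides of granulocytes were lower at D9. Of 11 granulocyte markers 5 were lower, all of them such peptides (CATH1, AvBD1, AvBD4, AvBD6 and AvBD7), and the other 6 were not called, so that the median ratio was -0.26. AvBD4 (-0.89) was not called without E18 replicate 1 (-0.63), nor without both livers that stood apart (-0.87). The mean log2 level of the list was between 6.64 and 7.23 at D9 and between 7.71 and 8.39 at E18, but the log2 of its summed signal overlapped, between 12.15 and 13.04 at D9 and between 12.66 and 13.55 at E18. The cathelicidin CATH1 was at 6.17, 7.03, 7.94 and 7.39 at D9 and at 11.24, 10.34, 10.03 and 9.96 at E18, a ratio of -3.26 (adjusted p = 7.0e-05 in limma). AvBD1, a defensin of granulocytes, was at 5.93, 7.34, 7.88 and 7.83 at D9 and at 11.15, 10.31, 9.84 and 9.51 at E18 (ratio -2.96, probe sets -2.96 to -0.29). LECT2, an attractant of leukocytes that is not in the list, had a ratio of -3.07. In CATH1, AvBD1 and LECT2 D9 replicate 1 was the lowest and E18 replicate 1 the highest of the 8 livers.

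Of 17 macrophage markers 4 were higher, 1 was lower and 12 were not called, so that the markers did not all go one way. The highest ratio of the list was that of the invariant chain CD74 (2.25), between 12.50 and 12.79 at D9 and between 10.21 and 10.60 at E18. The mean level of this list was between 8.86 and 9.31 at D9 and between 8.57 and 8.75 at E18. Of the T cell markers, CD3D had a ratio of 1.5 and CD3E 1.01, and 3 of 16 were higher, with a mean level of the list between 5.39 and 5.57 at D9 and between 5.13 and 5.17 at E18. No B cell marker of 15 was called, though 1 was higher without D9 replicate 1, D9 replicate 2, D9 replicate 3 or E18 replicate 2. The erythroid list held 1 lower gene of 14, BPGM (-1.84, probe sets -1.84 to -0.05), and globin HBA1 differed by 0.10. Of 19 markers of heart and skeletal muscle 2 were higher, the myosin light chain MYL4 and the skeletal actin ACTA1, and the myosin heavy chain MYH15 was lower (-1.44). MYL4 was at 10.33, 10.93, 11.25 and 10.50 at D9 and at 6.92, 7.22, 7.88 and 7.36 at E18 (ratio 3.41), while ACTA1 (0.81) had overlapping ages. ACTA1 was not called without D9 replicate 1 (0.60), D9 replicate 2 (0.73), E18 replicate 1 (0.79) or E18 replicate 4 (0.69). The log2 of the summed signal of the list was between 11.40 and 11.84 at D9 and between 10.10 and 10.55 at E18. MYL4 alone reached 11.25 at D9, and the sum without it was not tested. The other 16 members were not called. The mean log2 level of the list overlapped, between 5.27 and 6.41 at D9, with D9 replicate 1 the highest, and between 5.16 and 5.29 at E18.

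**Figure D4:**
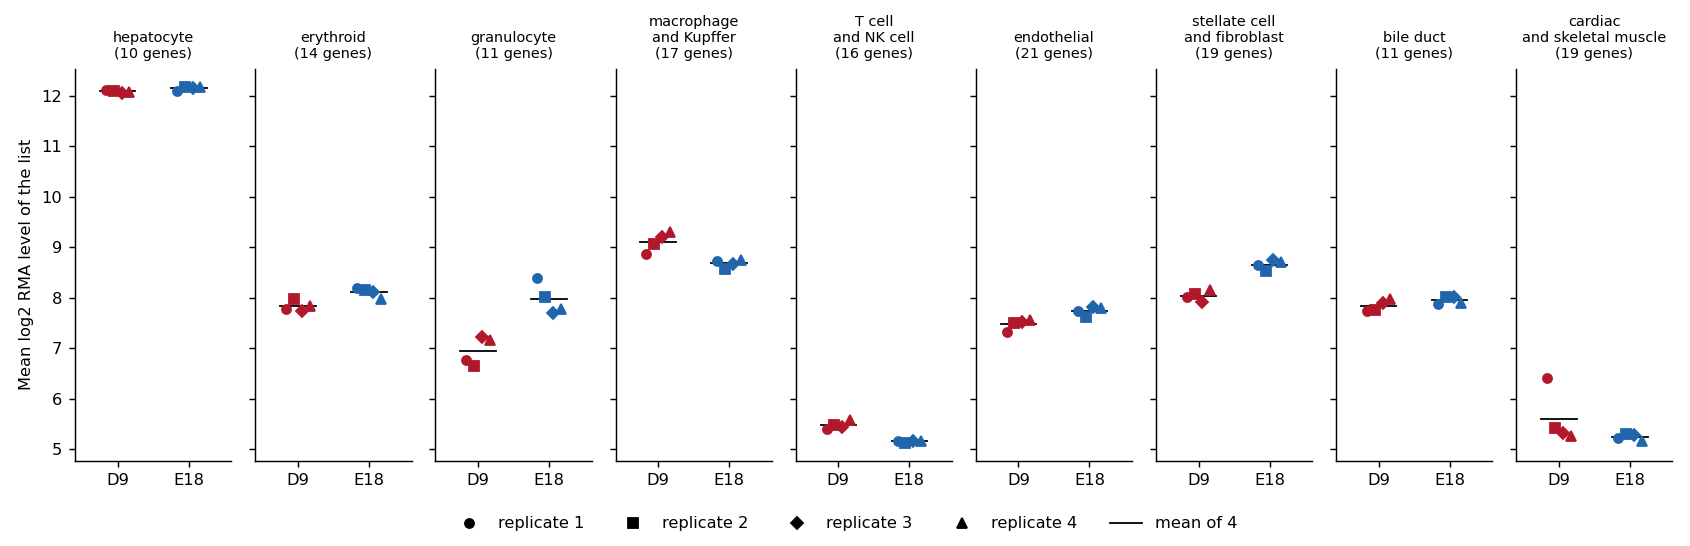
Mean log2 level of selected lists of cell markers on each array, with black lines at the mean of 4. The 4 D9 livers are in red on the left and the 4 E18 livers in blue on the right of each panel. The B cell list and some others are not shown. Granulocyte, endothelial and stellate cell lists lie lower at D9 and the macrophage and T cell lists higher without overlap, the hepatocyte lists of both ages lie between 12.05 and 12.18, and D9 replicate 1 stands apart in the muscle list.

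Matrix genes were lower at D9 in 16 of 88 and higher in 3, with a median ratio of -0.15. COL1A1 was at 10.05, 10.67, 9.81 and 10.21 at D9 and at 12.16, 12.04, 12.03 and 11.74 at E18, a ratio of -1.81 (adjusted p = 4.8e-05 in limma), and COL1A2 had -1.67 (probe sets -1.67 to -0.01). POSTN (-2.64), a matrix protein of fibroblasts, LAMB1 (-2.47), a laminin of basement membranes, and COL14A1 (-2.57, probe sets -2.57 to -0.04) were lower by more. The list of stellate cell and fibroblast markers, which shares COL1A1, COL1A2 and POSTN, had 5 of 19 lower and 1 higher, and its mean level was between 7.92 and 8.16 at D9 and between 8.53 and 8.74 at E18. Of 21 endothelial markers 3 were lower (1 without E18 replicate 4) and LYVE1 was higher (1.31). The lower ones were the tight junction gene CLDN5, at 7.15, 7.56, 7.72 and 7.26 at D9 and at 9.06, 8.92, 9.17 and 9.07 at E18 (ratio -1.63), ERG (-0.81, probe sets -0.81 to -0.52) and RAMP2 (-0.79). ERG was not called without D9 replicate 1 (-0.69), D9 replicate 2 (-0.75) or E18 replicate 4 (-0.65), and RAMP2 not without E18 replicate 4 (-0.73). The mean level of the endothelial list was between 7.33 and 7.56 at D9 and between 7.62 and 7.82 at E18. Of 11 bile duct markers EPCAM (-1.47), AQP1 (-1.06) and SOX9 (-0.84, and -0.68 and not called without E18 replicate 1) were lower. PKHD1 (1.41, probe sets -0.02 to 1.41) was higher, and the median ratio of the bile duct list was 0.02. The log2 of its summed signal was between 11.81 and 12.18 at D9 and between 12.62 and 12.85 at E18. Its mean log2 level overlapped, between 7.74 and 7.97 at D9 and between 7.87 and 8.02 at E18. The part of these cell types in the matrix result was not tested. The collagenase MMP1 was higher, between 5.46 and 6.75 at D9 and between 3.60 and 3.78 at E18, and its ratio of 2.57 is a lower bound.

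Genes of the growth axis went both ways, with 7 of 23 higher and 6 lower. IGF1 was at 6.60, 6.31, 5.46 and 6.13 at D9 and at 4.29, 4.48, 4.07 and 4.06 at E18, near background, so that its ratio of 1.90 (adjusted p = 5.8e-09 in limma) is a lower bound. IGFALS (2.18, probe sets -0.01 to 2.18), which holds IGFs in blood, and the growth hormone targets CISH (1.80) and SOCS3 (1.95) were higher too. IGFBP2, which binds IGFs, was at 7.22, 7.23, 7.48 and 6.96 at D9 and at 10.39, 10.61, 10.75 and 10.14 at E18 (ratio -3.25, adjusted p = 2.2e-10). The growth hormone receptor GHR (-0.90, probe sets -0.90 to -0.23) was lower, as were the RNA-binding proteins IGF2BP2 (-1.28, probe sets -1.28 to -0.32) and IGF2BP3 (-1.03), known from fetal tissue in mammals.

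Of 23 genes in the list of cell cycle brakes and cyclins 9 were higher at D9 and 1 was lower. The list also holds drivers of the cycle such as MYC and MYCN, and no cyclin was among the genes called. CDKN2B, which inhibits the cyclin D kinases, was at 12.35, 12.29, 12.15 and 12.42 at D9 and at 4.03, 4.05, 4.05 and 4.0 at E18. Its ratio of 8.27 (standard error 0.30, adjusted p = 2.9e-15 in limma), or 309-fold, is a lower bound, with E18 at background. CDKN2A had a ratio of 3.17, GADD45G had 4.42 and RB1 2.29 (probe sets -0.19 to 2.29). MYCN, a driver of growth in embryonic cells, was lower, between 4.06 and 4.60 at D9 and between 5.62 and 7.28 at E18 (-2.03, a lower bound of the size, probe sets -2.03 to -0.59), and MYC was higher (1.49). Of 35 genes of DNA replication 6 were higher and none was lower, led by the ribonucleotide reductase subunit RRM2 (2.25) and the thymidine kinase TK1 (1.53). Of 47 mitosis genes 4 were higher (2 without D9 replicate 3) and none was lower, except for 1 without D9 replicate 3. The kinase CDK1 differed by 0.08 and the proliferation marker MKI67 by 0.36.

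Of 24 heat shock chaperones 9 were higher at D9 and 1 was lower. HSPA8 was at 13.35, 13.40, 13.27 and 13.17 at D9, against 11.24, 11.89, 11.33 and 11.87 at E18, a ratio of 1.71 (adjusted p = 1.6e-08 in limma), and HSP90AA1 had 1.70. The cochaperone BAG3 went the other way, between 6.41 and 7.20 at D9 and between 8.83 and 10.80 at E18 (ratio -2.92). In the endoplasmic reticulum 9 of 37 genes of folding were higher and none was lower, except for 1 without D9 replicate 3. They include HSPA5 (12.83, 12.83, 12.85 and 12.87 at D9, 11.33, 12.39, 11.07 and 11.96 at E18, ratio 1.16), DNAJB11 (1.67) and HERPUD1 (1.63). In HSPA5 the E18 livers were spread over more than 1 log2 unit while the D9 livers were nearly level.

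Of 63 cytosolic ribosomal proteins 2 were higher (1 without D9 replicate 1) and none was lower, and of 74 genes of the respiratory chain and ATP synthase 3 were higher and none was lower, except for 1 without D9 replicate 3. The median ratio of the lists was -0.07 and -0.13. The proteasome had 4 of 29 higher (7 without E18 replicate 2), among them PSMD3 (1.08) and PSMD1 (0.93), with a median ratio of 0.39.

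Of 18 genes of the circadian clock 4 were higher and 1 was lower (0 without D9 replicate 1, D9 replicate 2, E18 replicate 3 or E18 replicate 4). Of 24 liver transcription factors 3 were higher and 4 were lower. Of 18 Kruppel-like factors and sirtuin deacetylases 5 were higher and 2 were lower. BHLHE41, a repressor tied to the circadian clock, was at 12.03, 11.89, 12.21 and 11.91 at D9 and at 5.53, 5.56, 5.45 and 5.14 at E18. Its ratio was 6.59 (standard error 0.16, adjusted p = 3.4e-18 in limma). CLOCK had 0.92. The Kruppel-like factors KLF13 (1.66), KLF10 (1.63) and KLF11 (1.13, probe sets 0.12 to 1.13) were higher beside KLF9, and the deacetylases SIRT1 (-1.35, probe sets -1.35 to -0.04) and SIRT5 (-1.35) were lower. PPARG, the receptor that drives fat storage in adipose tissue, was at 5.46, 5.64, 4.53 and 5.48 at D9 and at 4.03, 3.82, 4.02 and 4.12 at E18 (ratio 1.28, a lower bound). CEBPB had 1.07, PROX1 had -0.97 and HNF4A was not called (-0.36).

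Several genes outside the lists were among the 15 highest or the 15 lowest. UCHL1, a ubiquitin hydrolase abundant in neurons, was at 11.34, 11.22, 9.82 and 10.39 at D9 and at 4.90, 4.75, 4.65 and 4.89 at E18 (ratio 5.89), but of its 3 probe sets the lowest ratio was 0.03. SLC13A3, a carrier of dicarboxylates, was at 5.21, 5.74, 6.38 and 6.93 at D9 and at 11.50, 10.81, 11.26 and 10.94 at E18 (-5.07). PTGDS, which makes prostaglandin D2, was at 8.43, 8.01, 8.38 and 8.48 at D9 and between 12.52 and 13.39 at E18 (-4.54). In none of these 3 genes did the ages come within 3 log2 units of each other.

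RET, the receptor of the GDNF family of growth factors, was at 4.60, 4.61, 4.44 and 4.49 at D9 and at 10.13, 9.86, 8.16 and 8.24 at E18 (ratio -4.56, adjusted p = 6.3e-07 in limma, probe sets -4.56 to -0.61). FAM150B, a ligand of ALK receptors, was between 4.43 and 4.79 at D9 and between 8.66 and 9.57 at E18 (-4.39), and CHODL, a lectin-like membrane protein, between 3.52 and 3.90 at D9 and between 8.19 and 8.89 at E18 (-4.82, a lower bound of the size). All 3 genes were thus near background at D9. ENTPD1, which breaks down ATP outside cells, was at 10.09, 9.77, 9.74 and 10.22 at D9 and at 13.59, 13.60, 13.56 and 13.58 at E18, a ratio of -3.62 (standard error 0.11, adjusted p = 9.3e-17) with all 5 probe sets lower. UNC93A was at 5.20, 5.27, 5.27 and 5.31 at D9 and at 5.46, 10.40, 10.12 and 10.47 at E18, where replicate 1 lay beside the D9 livers, and its ratio of -3.85 (probe sets -4.29 to -0.32) became -5.07 without it. RNF144A, a ubiquitin ligase, and PLXNA4, a semaphorin receptor, both had -3.71 (probe sets of PLXNA4 -3.71 to -0.15), and the calcium pump ATP2B2 had -3.70.

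The other ages show where the levels lay between the E18 and D9 means. Of the 997 genes higher at D9 without overlap, 298 (29.9%) had an E20 mean nearer to the D9 mean than to the E18 mean, 545 (54.7%) a D1 mean and 894 (89.7%) a D3 mean. Of the 662 lower genes the numbers were 162 (24.5%) at E20, 431 (65.1%) at D1 and 639 (96.5%) at D3. At E16, which is before E18, 120 of the higher genes (12%) and 28 of the lower genes (4.23%) also had a mean nearer to the D9 mean. These counts carry no test. D1 chicks had not been fed, and D3 and D9 chicks had.

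**Figure D5:**
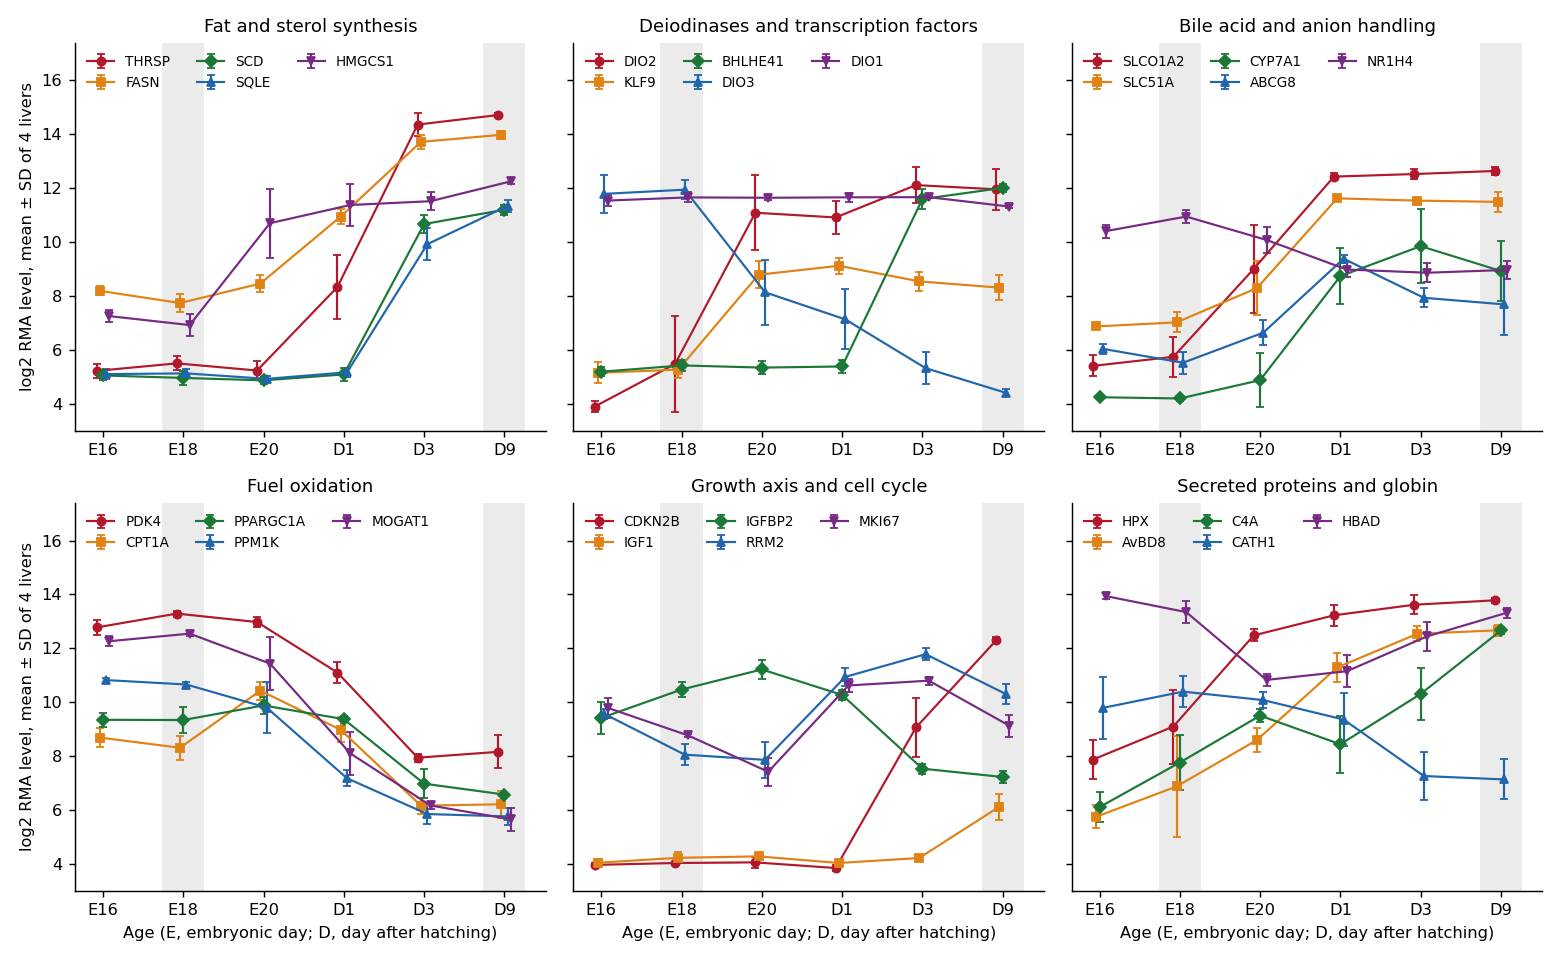
Log2 level (mean ± SD of 4 livers) at all 6 ages, evenly spaced on the x axis, with E18 and D9 shaded. SCD and SQLE stay near 5 up to D1 and lie near 10 or above from D3, DIO2 and HPX lie high from E20, and IGF1 lies near 4 up to D3. HBAD and MKI67 were not called between E18 and D9 but differ at ages between.

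Some genes had moved before hatching. DIO2 had a mean of 11.09 ± 1.39 (SD, n = 4) at E20, 10.91 at D1 and 12.11 at D3, and KLF9 was at 8.79 at E20 and 9.12 at D1, above its D9 mean of 8.31. HMGCS1 was at 10.70 at E20, whereas SQLE, in the same pathway, was at 4.92 at E20, 5.16 at D1 and 9.92 at D3. FABP1 (13.27) and HPX (12.48) were high at E20 too. DIO3 came down in steps, with means of 8.14 at E20, 7.13 at D1 and 5.32 at D3.

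Others moved between E20 and D1 or later. SLCO1A2 was at 9.00 ± 1.64 at E20 and at 12.43 ± 0.12 at D1, SLC51A at 8.29 and 11.62, CYP7A1 at 4.87 and 8.73, and XDH at 6.10 and 9.15. SCD (5.09 at D1, 10.67 at D3), FADS2 (4.42 and 9.77), ME1 (9.24 and 13.43), BHLHE41 (5.38 and 11.60) and CDKN2B (3.84 and 9.06) lay at their E18 level up to D1 and were high at D3. CDKN2B was at 12.30 at D9. FASN differed from SCD in this, with 10.94 at D1. IGF1 was at 4.03 at D1 and 4.22 at D3, and D9 was the only one of the 6 ages with a mean above background. CPT1A and LPL had their highest mean of the 6 ages at E20, at 10.43 and 10.39.

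A few genes that were not called between D9 and E18 lay apart from both between these ages. Genes not called include those that passed the adjusted p and missed the limit on the ratio. Of the 11273 genes not called, 44 had an E20 mean more than 1 below both the D9 mean and the E18 mean, and 26 more than 1 above both. At D1 the numbers were 27 below and 104 above, and at D3 10 below and 123 above. Hemoglobin genes lay low around hatching, with HBAD at 10.83 ± 0.23 at E20 and 11.15 ± 0.59 at D1, against 13.33 ± 0.18 at D9 and 13.34 ± 0.40 at E18. Of 47 mitosis genes, 42 had an E20 mean below both the D9 and the E18 mean, here by any distance. Means above both, again by any distance, were found in 44 at E16, 45 at D1 and 45 at D3. The share of all named genes under this looser rule was not counted. These 47 include the 4 that were higher at D9 than at E18. MKI67 was at 7.42 at E20, 10.62 at D1 and 10.80 at D3, and CDK1 at 8.61, 11.49 and 11.54 at the same ages. Both genes were thus lowest at E20 and highest at D3 among these ages.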

How the data were processed

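RNA of 24 livers was hybridized by the authors to Affymetrix Chicken Genome Arrays, 1 liver per array. The deposited log2 values had been made by the authors with RMA, which corrects background, normalizes over arrays and sums the probes of a probe set. They were used as deposited. Array medians were between 5.43 and 5.55, and each age had only 4 arrays. After 96 control probe sets were left out, limma 3.58.1 (R 4.3.3) was fitted to all 24 arrays. The fit had 1 mean per age and no block. Its standard errors and p-values rest on the spread within all 6 ages, not only on that of the 8 livers compared. A printed standard error can thus differ from the spread of the values beside it. P-values were adjusted by Benjamini-Hochberg over 38439 probe sets. Of these, 177 carry several symbols and 11094 none, and they were not named. The fit was tested on simulated data. A gene is shown by its probe set of highest mean over 24 arrays. Levels under 4.43, the 25th percentile, are called background, and a ratio against a mean under it is a lower bound.

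The rule for named genes took the 15 highest and 15 lowest ratios without overlap, up to 3 members per list and direction, 27 measured role genes and the defining cell markers. Of 232 genes in the text, 70 lie outside this rule and were named after their values were seen. The members and lists were chosen with earlier results of these data known. According to the study's methods each hybridization day held 1 liver of each age. The replicate number was taken as the day. How far livers lay from the mean of their age correlated at 0.071 on average between livers of the same day and at -0.0234 between days. The correlation of the D9 and E18 livers of a day was -0.147, -0.0417, -0.0386 and 0.0494. Alternatives were the day as a block, the 8 arrays alone, cyclic loess, other eBayes settings, array weights, a filter on dim probe sets, other limits, other probe sets per gene and leaving out livers. Promoter sequences were not used here.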

Additional observations from a re-analysis of the deposited data

Results flagged for a closer look

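Over 232 genes, 464 groups of 4 livers were looked at. In 22 of them 1 liver lay far from the other 3 for the range of its group. Chance alone would give about 1 in 20 such groups if they were independent, and 22 is close to that share. The groups share the same 8 livers, and some genes were named after their values were seen, so the count cannot decide whether there is an excess. E18 replicates 1 to 4 held 4, 6, 1 and 5 of the 22, and D9 replicates 1 and 3 held 3 each. At E18, replicate 2 stood apart in 6 genes. It was high in HINTW (12.17, others 5.48 to 6.05), HPX (11.13, others 8.11 to 8.59) and PPARD (6.38, others 5.96 to 6.03). It was low in PCK1 (4.93, others 7.78 to 8.20), PAICS (10.69, others 11.68 to 11.72) and SREBF1 (5.77, others 6.24 to 6.30). E18 replicate 1 was low in UNC93A (5.46, others 10.12 to 10.47), TFPI (5.66, others 8.87 to 9.25) and FABP1 (8.36, others 9.59 to 9.80) and high in MMP1 (3.78, others 3.60 to 3.63). E18 replicate 4 was low in KLF9 (4.81) and PLIN2 (9.62) and high in CD3E (5.64), ELOVL1 (8.56) and ERG (7.14), and E18 replicate 3 was high in UGP2 (12.12, the others at 11.83).

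At D9, replicate 1 was high in ACTC1 (8.69, others 5.15 to 5.24), NPPA (8.11, others 4.38 to 4.56) and CYP7A1 (10.57, others 8.17 to 8.54). D9 replicate 3 was low in DIO2 (10.82, others 12.18 to 12.45), PPARG (4.53, others 5.46 to 5.64) and LEAP2 (13.18, others 13.41 to 13.45).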

How the results depend on the processing

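When a ratio of any size was accepted, 4152 probe sets were higher at D9 and 4139 lower, with 2295 and 1736 named genes, of which 2006 and 1492 did not overlap. With a limit of 1 the numbers were 1185 and 902 probe sets, 657 and 445 named genes, and 640 and 435 without overlap. Leaving out 1 liver at a time gave 1628 to 2016 probe sets higher and 1371 to 1550 lower, 910 to 1119 and 662 to 730 named genes, and 891 to 1096 and 644 to 702 genes without overlap. With the replicate block (taken as the hybridization day) 1874 probe sets were higher and 1465 lower, with 1045 and 701 named genes. No call among the genes of the text changed with this block. These counts stayed within 1.5 times under the other alternatives.

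Of the 1736 called genes, 1637 stayed called under cyclic loess, 1566 to 1656 with 1 liver left out, and 1276 when the probe sets of a gene were averaged. Under that average LPIN2, NCOR1, PAICS, COL1A2, GHR, KLF11, SIRT1, ERG and PKHD1 were no longer called and APOB was. PMVK was not called in a fit of only the 8 arrays (adjusted p = 0.13 in limma), nor was ACTA1 (adjusted p = 0.051), nor NPC2 under cyclic loess (0.70). No gene of the text changed sign with a call. The planned search of promoters was not run. Low signal limits ratios of genes near background at either age.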

Other observations

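Of 34 genes of hepatokines and secreted growth factors, 9 were lower at D9 and 4 were higher (median ratio -0.08). SFRP1, which binds WNT ligands, was at 7.33, 7.36, 7.68 and 7.91 at D9 and at 9.71, 9.44, 8.76 and 9.51 at E18, a ratio of -1.78 (adjusted p = 2.1e-07 in limma, probe sets -2.11 to -0.02). The ligand WNT11 had a ratio of -1.48 (probe sets -1.48 to -0.20). FGF23, a hormone of phosphate balance, was at 6.14, 6.47, 5.88 and 5.71 at D9 and at 4.42, 4.19, 3.97 and 4.41 at E18, so its ratio of 1.80 is a lower bound. The adiponectin receptor ADIPOR2 had 1.59. In SFRP1, FGF23 and ADIPOR2 the ages did not overlap.

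In the heme and iron list 3 of 22 genes were higher and 4 were lower. The enzymes that break down heme were among the lower ones, with HMOX2 between 8.48 and 9.36 at D9 and between 10.33 and 11.23 at E18 (ratio -1.82, probe sets -2.11 to -0.27) and the biliverdin reductase BLVRA at -1.73 (probe sets -1.73 to -0.10). Among 24 amino acid carriers 1 was higher (2 without D9 replicate 4, and 2 without E18 replicate 3) and 4 were lower (7 without E18 replicate 1). SLC1A4, a carrier of small neutral amino acids, was at 4.71, 4.82, 4.92 and 4.85 at D9 and at 7.49, 7.44, 7.41 and 7.57 at E18 (ratio -2.65, adjusted p = 3.6e-08 in limma). SLC7A2, a carrier of cationic amino acids, had -2.40 (probe sets -2.40 to -0.08).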
